A study of Mus musculus with 2 samples.

Results

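The genes described here are Fgf3, Igfbp4 and Gal, 3 of the 32285 genes counted in single leukemic promyelocytes. They were chosen by their measured levels in the 2 libraries of the study: Fgf3 and Igfbp4 were higher in the vehicle library and Gal in the retinoic acid library. Their levels in that contrast are therefore a description and carry no test. Fgf3 encodes a secreted fibroblast growth factor, found as an integration site of mouse mammary tumour virus (int-2), that signals through FGF receptors in the developing embryo. Igfbp4 encodes a secreted protein that binds insulin-like growth factors and keeps them from their receptor until the protease PAPP-A cleaves it. Gal encodes the precursor of galanin, a neuropeptide that is cut out at basic residues, amidated and recognised by the G protein-coupled receptors GALR1, GALR2 and GALR3.

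The cells came from leukemic bone marrow of mice whose transformed progenitors carry the PLZF/RARA fusion, which joins a zinc finger protein to the retinoic acid receptor alpha. Mice of 1 group received retinoic acid by intraperitoneal injection, 0.8 to 1 mg, and those of the other were injected with corn oil holding 10% DMSO, both for 7 days. Both groups carried the fusion. Late promyelocytes were sorted as FcγR+, Gr1+ and C-Kit+ cells that were Cd45.2+ and Cd34-, and were run on 10x Genomics 3′ chemistry with 6000 cells as the target. A cohort was 3 to 5 mice, but the number of mice behind a library, the strain, the age and the promoter of the fusion are not given in the sources used here. Each group held 1 library, so differences between mice, sorts and library preparations are part of every ratio below and cannot be told apart from the treatment. All intervals are 95% intervals and cover counting error only.

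The vehicle library kept 5476 cells with a median of 16750 UMIs (unique molecular identifiers, each marking 1 captured RNA molecule), and the retinoic acid library kept 7140 cells with a median of 14604. Levels are in CPM, a gene's summed UMIs scaled to a common library total. The sorted label was checked on RNA. Ptprc, which encodes CD45, stood at 99.6 and 102 CPM in the vehicle and retinoic acid libraries, and Kit at 19.3 and 16.7 CPM, while Cd34 was at 53.8 CPM in the vehicle cells sorted as Cd34- and at 0.118 CPM in the other library. Of the genes for Gr1, Ly6c2 stood at 4765 and 4326 CPM and Ly6g at 35.6 and 281 CPM, a log2 ratio of 2.98. The Fcγ receptor genes Fcgr3 and Fcgr2b stood at 53.5 and 64.8 CPM and at 123 and 88.9 CPM. A gene was measured if it had at least 10 counts over both libraries. Of 14561 such genes, 20.8% were at least 2-fold apart, 833 of them higher with retinoic acid and 2191 lower. All 7 promyelocyte markers were measured: 3 were at least 2-fold higher with retinoic acid, 1 at least 2-fold lower and 3 under 2-fold. Elane, a primary granule protease, went from 62.8 to 7663 CPM and Mpo, the granule peroxidase, from 311 to 0.4996 CPM. The vehicle library also held mast cell and basophil transcripts, 810 CPM summed over 11 genes against 68.1 CPM with retinoic acid. Of 7 measured, 5 were at least 2-fold lower with retinoic acid, Cpa3 most of all at 570 against 0.0999 CPM, while Mcpt8 stood at 122 and 63.1 CPM and Ms4a2 at 1.45 and 2.05 CPM. Fcer1a, Tpsb2 and Tpsab1 had 0 counts in both libraries. Markers of neutrophil maturation, a list of 24 genes, summed to 3072 CPM in vehicle and 65076 CPM in retinoic acid cells. The libraries thus differ in many markers at once, and the part these play in the levels of Fgf3, Igfbp4 and Gal was not tested beyond the splits given below. The 2 libraries shared 11 barcodes.

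The 250 bases before each RefSeq start site are shown because the 3 genes differ in what these windows hold. Coordinates are GRCm38.p6. Capitals mark the match to a searched motif: GATAA read on the opposite strand in Fgf3, TATAAA in Igfbp4 and GGGCGG in Gal. The windows lie at chr7:144838362-144838611 on the plus strand for Fgf3, chr11:99040994-99041243 on the plus strand for Igfbp4 and chr19:3414545-3414794 on the minus strand for Gal.
Fgf3: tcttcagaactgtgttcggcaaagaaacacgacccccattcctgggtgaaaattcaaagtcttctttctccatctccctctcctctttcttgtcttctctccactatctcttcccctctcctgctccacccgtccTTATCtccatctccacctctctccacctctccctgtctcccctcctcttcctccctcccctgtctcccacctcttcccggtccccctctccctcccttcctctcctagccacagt
Igfbp4: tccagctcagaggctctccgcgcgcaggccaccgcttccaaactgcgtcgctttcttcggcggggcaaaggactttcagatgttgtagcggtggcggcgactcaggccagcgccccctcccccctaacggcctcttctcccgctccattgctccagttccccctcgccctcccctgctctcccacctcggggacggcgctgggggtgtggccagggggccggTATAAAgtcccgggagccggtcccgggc
Gal: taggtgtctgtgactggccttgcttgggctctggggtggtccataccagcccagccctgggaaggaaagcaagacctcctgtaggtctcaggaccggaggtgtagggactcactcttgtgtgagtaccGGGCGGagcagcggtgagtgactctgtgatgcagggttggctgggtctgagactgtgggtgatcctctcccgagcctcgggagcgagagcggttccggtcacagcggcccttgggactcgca

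The Fgf3 window is a run of pyrimidines. C and T made up 79.2% of its bases, more than in 99.9% of the 32851 RefSeq windows of the same length, whose median was 50%. GENCODE sets the start of its longest Fgf3 gene model upstream of this window, so for that model the window lies inside the gene. It held 4 CpG pairs, and its GATAA match, a sequence found in 22.6% of windows, lay 115 bases before the start. The Igfbp4 window was rich in G and C (69.2%) with 22 CpG pairs against a median of 6, and its TATAAA match, found in 12.4% of windows, lay 28 bases before the start. The Gal window had 62.4% G and C and 11 CpG pairs, and its GGGCGG match, found in 32.7% of windows, lay 122 bases before the start. The letters AGGTCA, which make up the repeats that retinoic acid receptors bind, were in none of the 3 windows and in 14.0% of all windows. No window held AGGTCA repeated in the same orientation with 2 or with 5 bases between (0.00913% of all windows each), TGACTCA (4.46%) or TGTGGT (14.0%). All motifs were searched on both strands, and none of the matches overlapped another. A match is a description of these letters and does not show binding.

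Fgf3 (ENSMUSG00000031074) lies on chromosome 7, 144838083 to 144844436, plus strand. It had 5625 UMIs in the vehicle library, a level of 56.8 CPM (55.3 to 58.3), and 78 UMIs in the retinoic acid library, a level of 0.709 CPM (0.560 to 0.884). The difference was 79.6-fold, a log2 ratio of −6.31 (−6.67 to −6.00). Igfbp4 (ENSMUSG00000017493) lies on chromosome 11, 99041244 to 99054392, plus strand. Its 7535 vehicle UMIs gave 76.0 CPM (74.3 to 77.8) and its 91 retinoic acid UMIs gave 0.827 CPM (0.666 to 1.01), a 91.5-fold difference with a log2 ratio of −6.52 (−6.84 to −6.23). Both were nearly lost from the retinoic acid library, to about the same level. Igfbp4 and Fgf3 ranked 8 and 9 from the largest decrease among the 5548 genes that reached 20 CPM in 1 or both libraries. Of these genes 8.07% were at least 2-fold apart and 5.05% at least 2-fold lower with retinoic acid, and since the genes were chosen in this contrast nothing is read from that share. No annotated gene overlaps any of the 3 genes.

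Gal (ENSMUSG00000024907) lies on chromosome 19, 3409915 to 3414544, minus strand. It had 1516 UMIs in the vehicle library, 15.3 CPM (14.5 to 16.1), and 28859 in the retinoic acid library, 262 CPM (259 to 265). The level was 17.1-fold higher with retinoic acid, a log2 ratio of 4.10 (4.02 to 4.17). Gal ranked 24 from the largest increase, and 3.03% of the genes that reached 20 CPM were at least 2-fold higher. Of the vehicle Gal UMIs, 72, 37 and 35 came from 3 cells. Without those cells the vehicle level was 13.9 CPM and the log2 ratio 4.24.

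**Figure D1:**
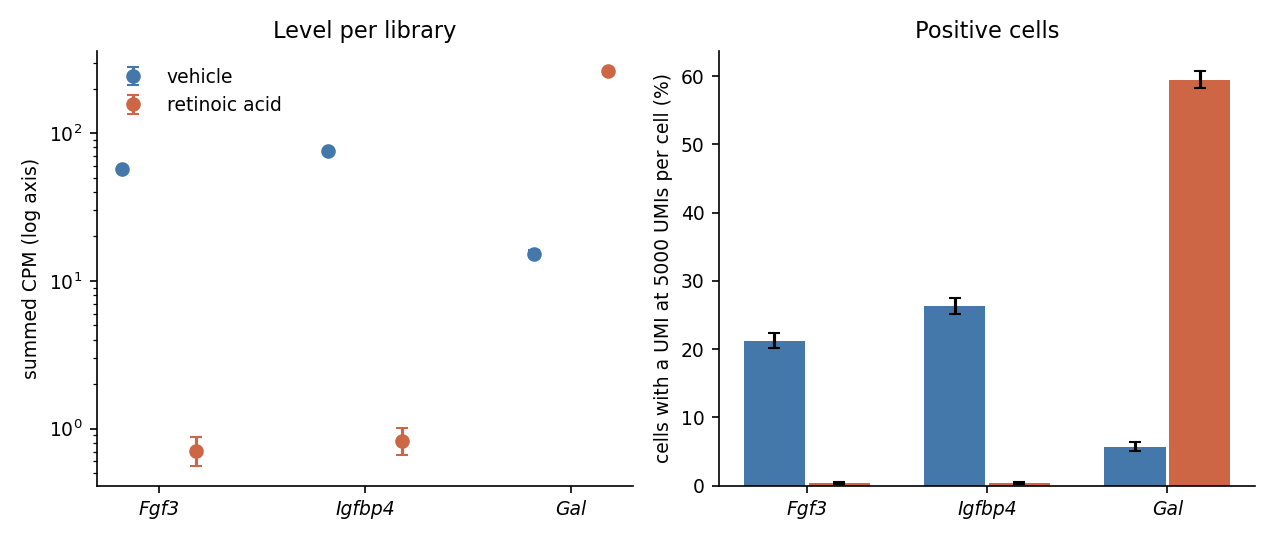
Left, summed CPM (log axis) of each gene in the vehicle and retinoic acid libraries, with 95% Poisson intervals. Right, the percent of cells with a UMI after every cell was thinned to 5000 UMIs, with 95% binomial intervals; Fgf3 and Igfbp4 fall below 1% with retinoic acid while Gal reaches 59.5%.

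Positive cells, those with at least 1 UMI, were compared after each cell was thinned at random to 5000 UMIs, which 5282 vehicle and 6659 retinoic acid cells could reach. Fgf3 was found in 1123 vehicle cells, 21.3% (20.2 to 22.4), and in 23 retinoic acid cells, 0.345% (0.219 to 0.518). Without thinning the shares were 45.1% and 0.868%. Igfbp4 was found in 1389 vehicle cells, 26.3% (25.1 to 27.5), and in 24 retinoic acid cells, 0.360% (0.231 to 0.536), with unthinned shares of 51.0% and 0.784%. Both genes were thus spread over many vehicle cells at low copy. Of the Fgf3-positive vehicle cells 24.7% held at least 2 UMIs, and of the Igfbp4-positive ones 25.2%. The most UMIs in a thinned cell was 6 for each.

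Gal was found in 303 vehicle cells, 5.74% (5.12 to 6.40), and in 3962 retinoic acid cells, 59.5% (58.3 to 60.7), against unthinned shares of 13.5% and 79.4%. At least 2 Gal UMIs were seen in 57.8% of the positive retinoic acid cells and in 24.4% of the positive vehicle cells. The thinned vehicle cells were uneven: the 53 cells with most Gal, 1% of them, held 41.3% of its UMIs, and 1 cell held 25 of the 462. The same 1% held 12% of the Fgf3 UMIs and 10.8% of the Igfbp4 UMIs, each ranked by its own gene. In the retinoic acid library the top 67 cells held 6.83% of the Gal UMIs.

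The Fano factor, the variance of the thinned UMIs over cells divided by their mean, describes the same unevenness. In the vehicle library it was 3.27 for Gal, 1.39 for Igfbp4 and 1.36 for Fgf3, against a median of 1.04 over the 5173 genes at 20 CPM or more there. Gal was above 98.9% of those genes, Igfbp4 above 93.4% and Fgf3 above 92.7%. The vehicle value of Gal rests in part on 1 cell with 25 thinned Gal UMIs. Without that cell, a setting chosen after seeing the data, the Fano factor of Gal was 2.04, above 97.6% of those genes. In the retinoic acid library, with all its cells, the Fano factor of Gal was 2.33.

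**Figure D2:**
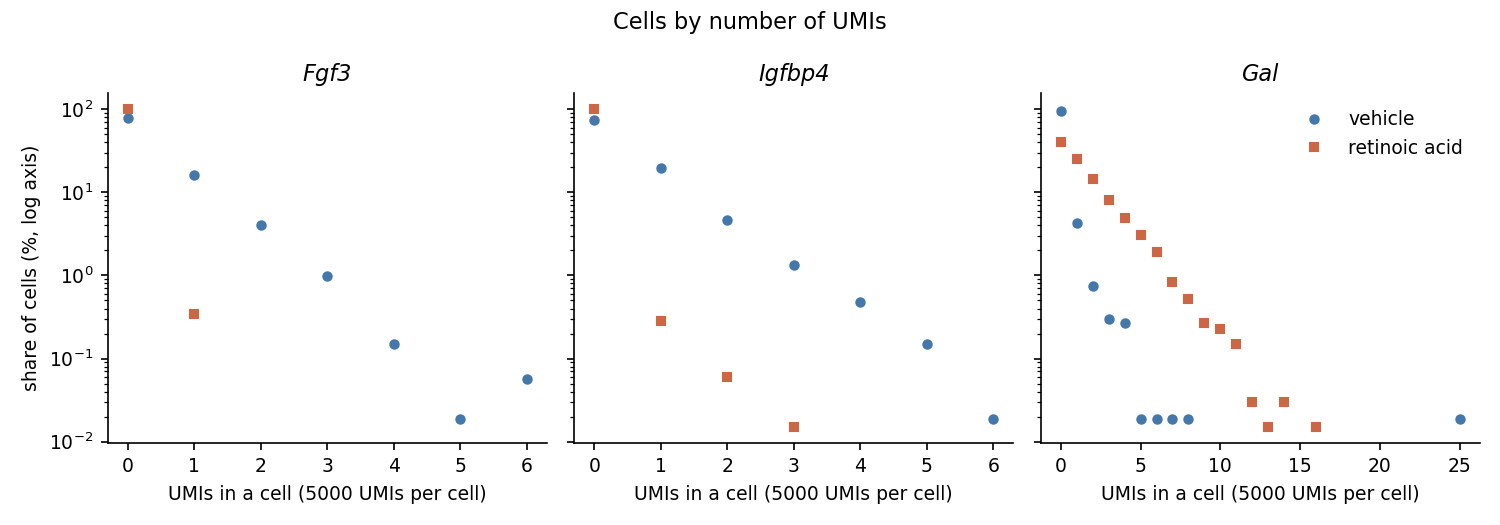
Share of thinned cells (percent, log axis) by the number of UMIs of each gene they held, for the vehicle library (circles) and the retinoic acid library (squares); numbers that no cell held are not drawn. Fgf3 and Igfbp4 reach 6 UMIs in vehicle cells, and Gal has 1 vehicle cell at 25 UMIs apart from the rest.

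Depth moved with detection. Fgf3-positive vehicle cells had a median of 18177 UMIs before thinning and the others 15491. For Igfbp4 the medians were 19473 and 14167. Fgf3 went from 64.2 CPM in the 1369 shallowest vehicle cells to 55.4 CPM in the 1369 deepest, whereas Igfbp4 went from 54.5 to 80.1 CPM. Gal went from 24.2 to 12.6 CPM in the vehicle cells and from 323 CPM in the 1785 shallowest to 203 CPM in the 1785 deepest retinoic acid cells. The part of depth in these levels was not tested further.

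Fgf3 and Igfbp4 were found in the same cells about as often as their separate shares give. In the vehicle library 328 cells held both after thinning, 1.11 times (0.997 to 1.23) the product of the single shares. Fgf3 and Gal met in 38 cells, 0.590 times that product (0.418 to 0.809). Igfbp4 and Gal met in 69 cells, 0.866 times (0.675 to 1.09). All 3 were found in 13 cells and none of them in 54.7% of cells. Gal was present in 3.38% of the vehicle cells with Fgf3 and in 6.37% of those without. At 5000 UMIs per cell many cells that express a gene give no UMI, and these are cells of 1 library, so the ratios describe that library. In the retinoic acid library Fgf3 and Igfbp4 met in 0 of 6659 cells, which allows a share of up to 0.0451%.

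Clustering the vehicle library with the 3 genes left out gave 6 clusters, numbered from 0, that separated cycling from resting cells and set apart some small groups. Clusters 0 (1804 cells, led by Hist1h1b and Cenpf) and 1 (949 cells, led by Ung and Hells) had cell cycle genes in front. Cluster 2 (1991 cells) was led by Lair1 and Snhg11. Cluster 3 (538 cells) was led by Prg2 and Ccl6, and cluster 5 (116 cells) by Epx and Rnase12. Of a list of 7 eosinophil markers, Prg2 and Epx were among the 10 leading genes of cluster 3, and Epx and Ear6 among those of cluster 5. Each of these clusters also had 1 gene of the mast cell and basophil list among its 10 leading genes, Gzmb in cluster 3 and Mcpt8 in cluster 5. That list took 0.309% of the UMIs in cluster 3 and 0.192% in cluster 5, against 0.0135 to 0.109% in the others. In cluster 4 (78 cells) the neutrophil granule genes Ltf and Camp led. These numbers are used as names only.

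Fgf3 was highest in the clusters led by Epx and by Prg2, with 134 CPM (120 to 148) in cluster 5 and 82.5 CPM (75.5 to 90.1) in cluster 3. It lay between 48.8 and 57.5 CPM in clusters 0, 1 and 2, where clusters 1 and 2 overlapped in their intervals. Cluster 4 had 12.7 CPM (6.09 to 23.3), from 10 UMIs. On the log2 scale cluster 5 exceeded cluster 4 by 3.33 (2.50 to 4.47). Igfbp4 took another order. It was highest in clusters 0 (82.6 CPM), 1 (81.2 CPM) and 2 (75.6 CPM), lower in cluster 5 (60.3 CPM) and cluster 3 (29.3 CPM), and lowest in cluster 4 (12.7 CPM), a log2 range of 2.63 (1.82 to 3.76). The intervals of clusters 0 and 1 overlapped, as did those of clusters 1 and 2.

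Gal was highest in cluster 4. It had 232 CPM (200 to 269) there, near its level over the whole retinoic acid library, and 13.5 to 14.9 CPM in clusters 0, 1 and 2, whose intervals overlapped and which held the 3 cells with most Gal. Clusters 3 and 5 had 4.81 CPM (3.22 to 6.90) and 3.05 CPM (1.32 to 6.01). On the log2 scale cluster 4 exceeded cluster 5 by 6.17 (5.24 to 7.48). By number, most Gal UMIs lay outside cluster 4, which held 183 of the 1516. Clusters 0, 1 and 2 held 660, 240 and 396 of them. After thinning, 56.1% of the cells in cluster 4 were Gal-positive against 1.58% in cluster 3 and 0.909% in cluster 5. In cluster 4, Fgf3 was found in 1 of 66 thinned cells (1.52%) and Igfbp4 in 4.55%. Median depth was 9436 UMIs in cluster 4, 10876 in cluster 3 and 22423 in cluster 5. No cell type known beforehand to lack these genes was available, so how much of each share is free RNA was not tested.

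**Figure D3:**
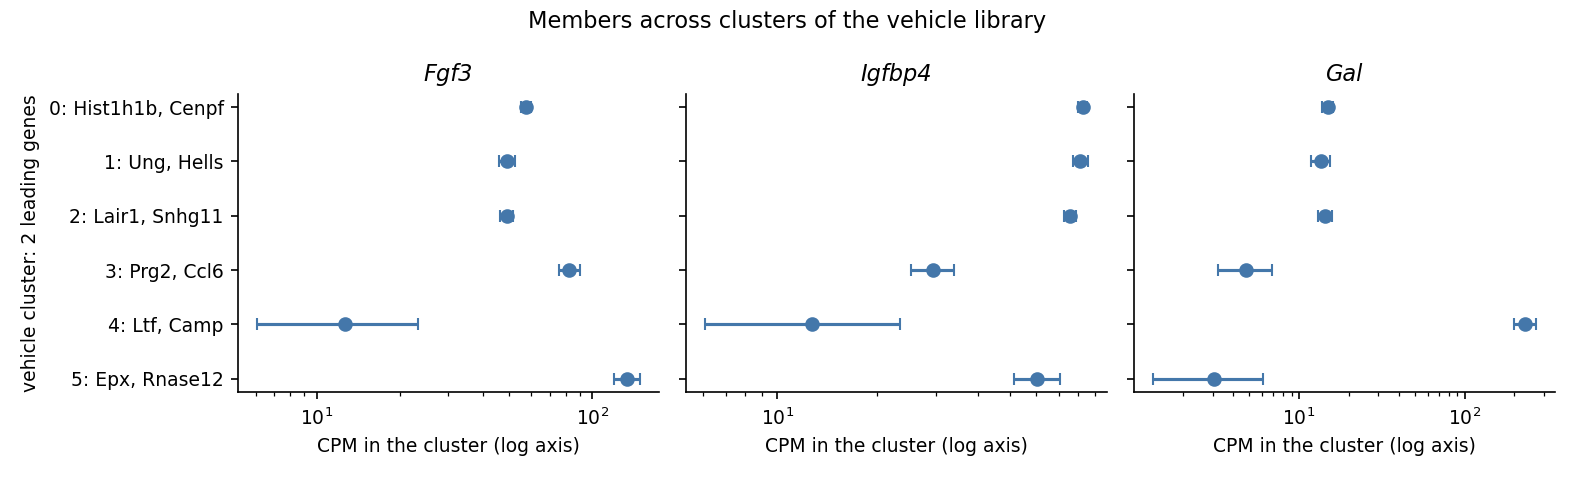
CPM (log axis) of each gene in the 6 clusters of the vehicle library, named by number and 2 leading genes, with 95% Poisson intervals. Fgf3 is highest in clusters 3 and 5, Igfbp4 in clusters 0 to 2, and Gal stands at 232 CPM in cluster 4.

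The genes most like each member over the vehicle cells were ranked by Pearson r of log-transformed thinned UMIs among the genes at 20 CPM or more there. These r values are over 5282 cells that share a library and a fixed depth, and they carry no p. For Gal the leaders were granule and maturation genes. Camp, the cathelicidin antimicrobial peptide, had an r of 0.43, S100a8 and Ngp 0.37 each, S100a9 0.29, and the complement gene C3 and haptoglobin (Hp) 0.24 each. They were followed by Lcn2 (0.22), Olfm4 (0.21), Tmsb4x (0.19) and Arhgdib (0.16). Camp stood at 3481 CPM in vehicle cells with Gal and at 87.9 CPM in those without. Only 28.1% of the vehicle cells with Gal had a Camp UMI, against 2.17% of those without, so the mean came from a minority of them. In the retinoic acid library the first genes were again Camp (0.38), Ngp (0.35), S100a9 (0.32) and S100a8 (0.30), and Camp stood at 28158 CPM in cells with Gal against 14595 CPM in those without.

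For Fgf3 the highest r was 0.15. Values this low in sparse counts are given as a description only. The 10 highest belonged to Cpa3 (0.15), Ldhc, Hdc and Itga2b (0.14 each), Anxa1, Arsb, Aspa, Ly6k, Ctsh and Ly6c2. Cpa3, a mast cell carboxypeptidase, was at 890 CPM in vehicle cells with Fgf3 and at 581 CPM in those without, and Hdc, which makes histamine, at 121 and 60.0 CPM. The 11 mast cell and basophil markers together took 0.126% of the UMIs in cells with Fgf3 and 0.0814% in those without. The eosinophil list took 0.0210% and 0.0121%, and the maturation list 0.242% and 0.412%. For Igfbp4 the highest r was 0.12, likewise a description only. Its 10 highest were Nme2, Cd34, Npm1, Ppia, Hsp90ab1, Ptma, Tcrg-C2, Hsp90aa1, Serpina3g and Nop10. Cd34 was at 76.9 CPM in cells with Igfbp4 and 47.3 CPM in those without. Tcrg-C2 and Serpina3g have near-identical copies and their counts are uncertain.

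Grouping the vehicle cells by the mast cell gene Cpa3 and the granule gene Mpo gave the 3 genes different orders. Fgf3 was highest in the 2549 cells with Cpa3 and without Mpo (72.2 CPM, 67.6 to 77.0) and lowest in the 636 cells with Mpo alone (30.5 CPM, 24.7 to 37.2). Igfbp4 was highest in the 519 cells with both (105 CPM, 93.1 to 118) and lowest in the 1578 with neither (50.8 CPM, 46.0 to 56.1). Gal was highest with neither (39.8 CPM, 35.5 to 44.5) and stood at 4.62 to 6.04 CPM in the classes with Cpa3.

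The maturation share, the percent of a cell's thinned UMIs that fell in the maturation list, had a median of 0.18% in vehicle and 3.7% in retinoic acid cells. From the 1320 vehicle cells with the lowest share to the 1321 with the highest, Gal went from 5.45 to 45.1 CPM, a log2 ratio of 3.03 (2.55 to 3.59), and Igfbp4 from 99.4 to 39.5 CPM, a log2 ratio of −1.33 (−1.54 to −1.12). Fgf3 moved less, from 45.6 to 61.3 CPM. Gal followed the share in the retinoic acid cells too, from 114 to 444 CPM with a log2 ratio of 1.95 (1.85 to 2.06). The 165 vehicle cells with a share of at least 1% were 3.12% of the cells and held 38.3% of the Gal UMIs, or 32.9% without the 3 cells with most Gal. Of these cells 43.6% were Gal-positive against 4.51% of the others, while Fgf3 was found in 8.48% against 21.7% and Igfbp4 in 9.70% against 26.8%.

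Cells of like maturation share were then compared between the libraries. The share is a sum, and its genes did not all move the same way. Of 23 measured genes of the list 19 were at least 2-fold higher and 2 at least 2-fold lower with retinoic acid. Over all 14561 genes with 10 counts, 833 were at least 2-fold higher and 2191 at least 2-fold lower. Camp stood at 175 CPM in vehicle and 18200 CPM in retinoic acid cells, and Anxa1 at 441 and 55.3 CPM. Cells of like share may therefore be alike in the sum and not in the genes behind it. For Gal the log2 ratio of retinoic acid to vehicle was 2.32 (0.86 to 3.35) among cells with a share of 0.1 to 0.2%, 2.21 (1.81 to 2.60) at 0.2 to 0.5%, 1.60 (1.21 to 2.03) at 0.5 to 1% and 0.68 (0.22 to 1.21) at 1 to 2%. At 2 to 5% it was −0.45 (−0.78 to −0.08), with 356 CPM in 41 vehicle cells and 262 CPM in 1757 retinoic acid cells. At 5 to 10% it was 0.44 (−0.08 to 1.08) from 20 vehicle cells, and at 10% or more 0.62 (0.19 to 1.12) from 28. The ratios of 4.10 between the whole libraries and 4.02 over all thinned cells were thus above that in every bin compared. The bin below 0.1%, with 911 vehicle and 5 retinoic acid cells, was not compared. The 3 vehicle cells with most Gal UMIs lay in the bins from 1 to 5%. Without them the ratio was 1.01 (0.50 to 1.62) at 1 to 2%, and at 2 to 5% it changed sign to 0.20 (−0.21 to 0.68).

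Fgf3 and Igfbp4 differed between the libraries at every maturation share where both had counts. The Fgf3 log2 ratio was −3.99 (−5.55 to −2.97) at 0.2 to 0.5%, −5.36 (−7.43 to −4.12) at 0.5 to 1% and −6.59 (−10.03 to −4.78) at 1 to 2%. For Igfbp4 the ratios in those bins were −4.30 (−6.35 to −3.11), −3.96 (−5.57 to −2.84) and −4.35 (−6.01 to −2.84). For Igfbp4 the bins with counts in both libraries ran from −3.49 to −5.97, against −6.29 over all thinned cells. These end values rest on 1 and 6 retinoic acid UMIs. The intervals at 0.5 to 1% and at 1 to 2% did not reach −6.29, and those of the other bins included it. For Fgf3 the bins with counts in both libraries ran from −3.99 to −6.59, on both sides of its −6.31 over all thinned cells. At 5 to 10% the interval for Fgf3 reached 1.57 because only 1 vehicle UMI was counted. At 10% or more neither gene had a UMI in 28 vehicle cells, which allows a share of cells with a UMI of up to 10.7%.

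**Figure D4:**
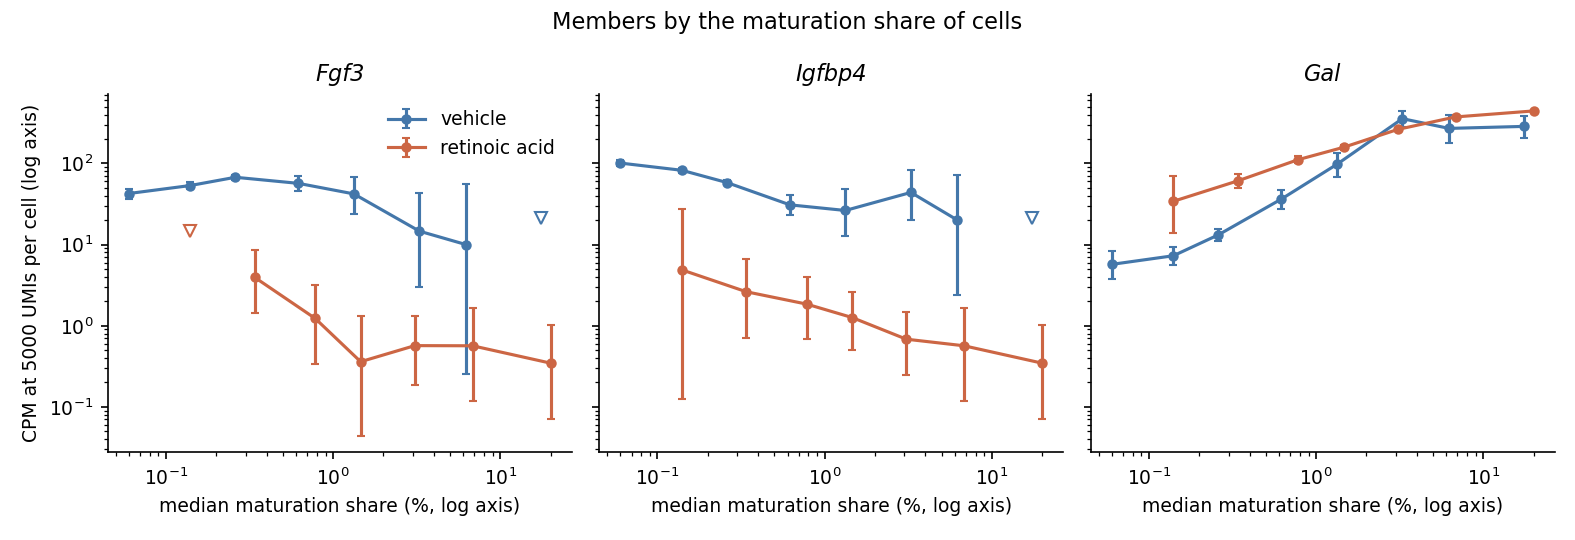
CPM (log axis) of each gene against the median maturation share (percent, log axis) of cells in bins of at least 20 thinned cells, for both libraries, with 95% Poisson intervals; open triangles mark bins with no UMI at the level of 3 counts. Gal climbs with the share in retinoic acid cells and, up to the bin from 2 to 5%, in vehicle cells, while Fgf3 and Igfbp4 stay lower with retinoic acid wherever both have counts.

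The 3 genes varied less over cell cycle phases than over clusters of vehicle cells. Fgf3 stood at 54.6 CPM in G1, 51.4 in S and 60.4 in G2/M, Igfbp4 at 65.6, 77.8 and 78.0, and Gal at 17.6, 23.6 and 14.9. Within phases the log2 ratios between the libraries ran from −7.65 to −5.58 for Fgf3, from −7.06 to −6.12 for Igfbp4 and from 3.73 to 4.21 for Gal.

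A few retinoic acid cells held UMIs of Fgf3 or Igfbp4. The 78 Fgf3 UMIs lay in 62 cells, 52 of them with 1 UMI, and the 91 Igfbp4 UMIs in 56 cells. With both genes this rare, 1 cell held both, and none of these UMIs fell in the 11 shared barcodes. Among cells with a maturation share of at most 0.7%, the level under which 95% of vehicle cells lay, Fgf3 was at 2.81 CPM, from 31 UMIs in 602 cells, against 0.451 CPM in the rest. Igfbp4 was at 2.27 CPM against 0.677 CPM. Cpa3, found in 9 cells of the library, was in none of the cells with either gene. Mpo, found in 3 cells, was in 1 Igfbp4 cell, and Cd34, found in 11, was in 1 Fgf3 cell. Before thinning Gal was found in 31 of the 62 Fgf3 cells and 46 of the 56 Igfbp4 cells, against 79.4% of all cells. After thinning it was in 11 of 23 Fgf3 cells, 0.804 times (0.401 to 1.44) the product of the single shares, and in 6 of 24 Igfbp4 cells (25%), 0.420 times (0.154 to 0.914) the product, against 59.6% of the cells without Igfbp4. Their median depths, 20116 and 20665 UMIs, were above those of the cells without the gene (14571 and 14567). Whether these UMIs are expression or free RNA was not tested.

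Of 22 genes of the FGF family, 13 had no count in the vehicle library and 5 had the 10 counts over both libraries needed to be measured. Fgf3, Fgf11 (99 and 10 UMIs, log2 ratio −3.40) and Fgf15 (12 and 1 UMIs, −3.21) were at least 2-fold lower with retinoic acid, none was higher, and Fgf2 and Fgf22 were under 2-fold. Fgf3 was chosen for being lower, so it adds nothing to that count. Of all 14561 genes with 10 counts, 20.8% were at least 2-fold apart, 2191 of them lower and 833 higher, and the median log2 ratio was −0.08. Fgf3 made up nearly all of the RNA of these 22 genes, 56.8 of a summed 58.1 CPM in the vehicle library. The receptors were scarce. Fgfr2 had no count in either library, Fgfr1 had 24 and 13 UMIs (log2 ratio −1.01, −2.13 to −0.0050), and Fgfr4 and Fgfr3 had at most 11. The docking protein gene Frs2 stood at 10.8 and 8.47 CPM. Of 5 measured receptor and adaptor genes 1 was at least 2-fold lower, with a list median of −0.35.

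Genes that FGF signalling is known to induce did not share a direction. Of 7 measured, Spry1 (2.60 to 6.10 CPM, log2 ratio 1.23) and Dusp6 (3.40 to 8.13 CPM, 1.26), which restrain the ERK pathway, were at least 2-fold higher with retinoic acid. The transcription factor genes Etv4 (6.78 to 0.672 CPM, −3.33) and Etv5 (5.21 to 1.27 CPM, −2.03) were at least 2-fold lower. Spry2, Spred1 and Spred2 were under 2-fold, and the list median was −0.16. Over all genes with 10 counts, 20.8% were at least 2-fold apart.

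In the IGF system 2 of 4 measured ligand, receptor and substrate genes were at least 2-fold higher with retinoic acid. Of all 14561 genes with 10 counts, 833 were at least 2-fold higher and 2191 at least 2-fold lower. Of 8 genes of the binding-protein list, 3 were measured and all were at least 2-fold lower with retinoic acid: Igfbp4, Igfbp6 (4.80 to 1.23 CPM, log2 ratio −1.97) and Igfals (4.62 to 1.75 CPM, −1.40), which encodes a subunit of the circulating IGF complex. Igfbp4 was chosen for being lower, so it adds nothing to that count. Igfbp4 accounted for 76.0 of the 85.5 CPM of that list in the vehicle library. Igf1r, the signalling receptor, went from 24.9 to 50.9 CPM (1.03) and Igf2r, which takes up IGF2, from 2.85 to 5.99 CPM (1.07), while Insr (0.06) and Irs2 (−0.85) were under 2-fold. The ligands were close to absent: Igf1 had 1 UMI in each library, and Igf2 had 0 and 1. Among the genes that act on IGFBP4 protein, Pappa and Pappa2 had no count in either library, and Stc2, a stanniocalcin that inhibits PAPP-A, went from 36.5 to 16.6 CPM (−1.14).

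Galanin receptors were few. Galr1 had no count in either library, Galr2 had 6 and 0 UMIs, and Galr3 stood at 4.22 and 2.56 CPM, a log2 ratio of −0.72. Of the enzymes that process peptide precursors, the neuroendocrine convertases Pcsk1 and Pcsk2 had at most 1 UMI in a library and Cpe, a carboxypeptidase, had 3 and 0. The amidating enzyme gene Pam went from 11.8 to 18.6 CPM (log2 ratio 0.65) and Furin, a convertase of the secretory pathway, from 28.1 to 15.1 CPM (−0.90), both under 2-fold.

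Of 18 measured protein-coding neighbours within 250 kb of the 3 genes, 4 were at least 2-fold apart (22.2%), near the 20.8% over all genes with 10 counts. Around Fgf3, 4 of 5 protein-coding neighbours were measured. The cell cycle gene Ccnd1 (51 and 50 UMIs, log2 ratio −0.18) and LTO1 (11.1 and 12.3 CPM, 0.14) differed little, and Fgf4 had no count. Fgf15 and Ano1 (7 and 3 UMIs, −1.25, −3.96 to 0.76) were past 2-fold on few UMIs. Around Igfbp4, 9 of 13 neighbours were measured, with a median of 0.07. Top2a (167 and 199 CPM, 0.25), whose start lies 17.1 kb from that of Igfbp4, and 6 others were under 2-fold. Rara, the gene of the receptor in the fusion, was lower (11.0 to 1.97 CPM, −2.48, −2.70 to −2.27), as was Tns4 (159 and 4 UMIs, −5.30). Whether the counted Rara UMIs came from the fusion or from the normal gene cannot be told apart in these files. Around Gal all 5 neighbours were measured and under 2-fold, with a median of −0.17. The nearest, Tesmin and Cpt1a, had log2 ratios of 0.68 and −0.50.

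**Figure D5:**
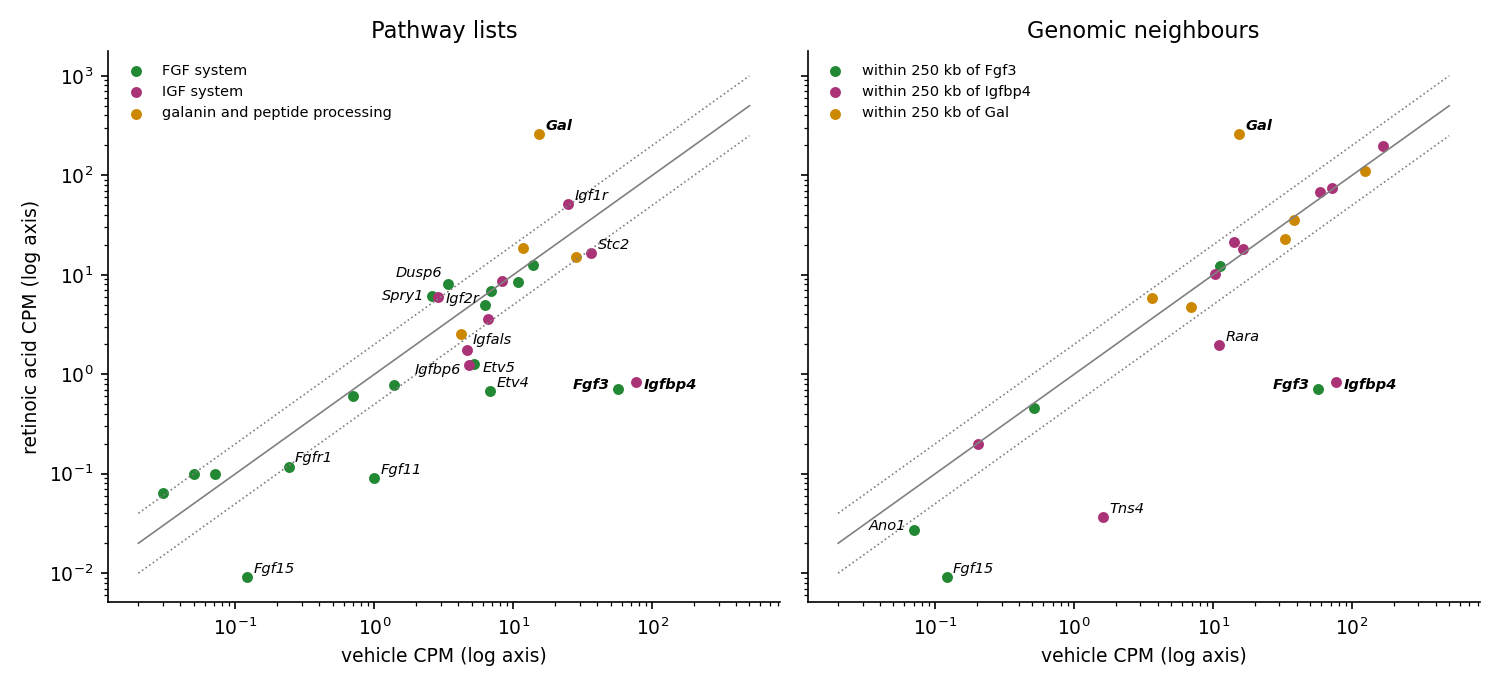
CPM in the retinoic acid library against CPM in the vehicle library (both log axes) for the measured genes of the FGF, IGF and galanin lists (left) and for measured neighbours within 250 kb (right); the solid line marks equal levels, dotted lines 2-fold, and labels name the 3 genes and those past 2-fold. Fgf3 and Igfbp4 lie far below the lines and Gal far above, while most neighbours lie between the dotted lines.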

How the data were processed

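The authors deposited UMI counts for every gene in every cell, unnormalised. The file headers name Cell Ranger 4.0.0, and mm10 and GRCm38.p4 are the builds in the submitters' processing notes. Genes were taken by symbol from both matrices, with GRCm38 coordinates from GENCODE M21 by gene identifier and promoters from RefSeq (GRCm38.p6), where all 3 genes matched. The 3 genes and the lists were chosen with earlier results of these data known.

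Cells with at least 1000 UMIs, 500 genes and at most 10% mitochondrial UMIs were kept, leaving out 310 vehicle and 276 retinoic acid barcodes, and 99107718 and 110088247 UMIs remained. Scrublet called 1 and 7 doublets, too few to be credible, so none were removed. Counts were summed per library, and log2 ratios had 0.5 counts added to each sum. A count of 0 allows 3 counts, 0.0303 CPM in vehicle and 0.0273 CPM in retinoic acid cells. Intervals are exact (Poisson for sums, conditional binomial for ratios, Clopper-Pearson for shares). Thinning left out 194 and 481 shallower cells. Clusters used 2000 variable genes, 30 components, 15 neighbours and Leiden resolution 0.5, and phases came from scanpy scoring. Named genes were the 3 genes, members of their pathway lists with at least 10 counts, the 10 highest r per gene, neighbours within 250 kb, the sorted antigens, and Cpa3, Mpo, Elane and Camp. Leading genes of clusters and single cells with many Gal UMIs were named after their values were seen. With 1 library per group no test was made. Scripts were tested on simulated data. Tools were Python 3.11.15, numpy 2.4.6, scipy 1.17.1, scanpy 1.11.5 and R 4.3.3, and edgeR 4.0.16 gave the TMM scaling of an alternative.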

Additional observations from a re-analysis of the deposited data

How the results depend on the processing

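No paired analysis was possible because there was 1 library per group. Of 92 alternative values 61 stayed within the counting interval or within 1.5 times, and 31 moved. A change of sign could be called only for log2 ratios, and 0 were called. The log2 ratios of the highest to the lowest cluster cannot be negative, so only those between the libraries could change sign. Ratios of co-occurrence that crossed 1, given below, were not called. The log2 ratio of Gal was 4.18 with TMM scaling, 4.0 with equal weight for every cell, 4.19 with the maturation list left out of the totals, 4.02 in thinned cells and, chosen after seeing the data, 4.24 without the 3 vehicle cells with most Gal. Shares of positive cells follow the depth by construction. At 3000 UMIs, without thinning and with at least 2 UMIs required, they were 15.5%, 45.1% and 5.24% for Fgf3 in vehicle cells and 0.130%, 0.868% and 0% in retinoic acid cells. They were 16.2%, 51.0% and 6.63% for Igfbp4 in vehicle cells, and 0.784% without thinning and 0.0751% with 2 UMIs in retinoic acid cells. For Gal they were 3.74%, 13.5% and 1.40% in vehicle cells and 46.0%, 79.4% and 34.4% in retinoic acid cells. Of the 10 leading genes of Igfbp4, 6 were shared with unthinned counts, 5 at 3000 UMIs and 6 in G1 cells. The log2 range of Fgf3 over clusters was 2.02 at resolution 1, taken over 12 clusters with the smallest clusters left out. Fgf3 with Igfbp4, whose interval spans 1, met 0.893 times the product at 3000 UMIs, and Fgf3 with Gal 0.871 times it without thinning; the cause was not tested. Igfbp4 with Gal passed to 1.02 at 3000 UMIs, inside its interval. Genes at least 2-fold apart numbered 448, and 923, 133 and 6081 with a limit of 5 CPM, of 100 CPM and of none, since the limit sets how many are counted. TMM scaling, a shift of 0.08 on the log2 scale, gave 190 higher and 246 lower in place of 168 and 280. In the retinoic acid library, 78 and 91 UMIs limit what can be said of Fgf3 and Igfbp4.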
